A study of Mus musculus with 12 samples.

Results

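Colonies picked while mouse leukemia cells were being reprogrammed were compared with the state they came from and with the state they were moving to, and the genes whose level in the colonies lay outside both were described. A gene was taken when the mean of the 6 colony arrays differed in the same direction from the mean of the 3 leukemia arrays and from the mean of the 3 induced pluripotent stem (iPS) cell arrays, each at an adjusted p under 0.05 over all genes tested. The rule found 824 of 22180 genes, of which 381 were higher in colonies than in both ends and 443 were lower. The 12 Affymetrix arrays comprised 3 of GFP-negative colonies, labelled reprogrammed, 3 of GFP-positive colonies, labelled partially reprogrammed, 3 of leukemia cells from the spleen, whose titles all name Notch-1 leukemia-1, and 3 of established iPS cells named Notch-1 ips. All 4 groups carried the mouse genotype R26rtTA;Col1a12lox-4F2A, a doxycycline-controlled transactivator at the Rosa26 locus with an inducible cassette of Pou5f1, Sox2, Klf4 and Myc in Col1a1. The labels give neither animal ages nor colony days and do not say what GFP marks. Whether replicates were separate animals or cultures is not stated either, and the p-values therefore reflect only how much these arrays varied, which may be technical.

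Reprogramming by these 4 factors replaces the program of a differentiated cell with that of a pluripotent one. Cells pass through states in which the old program is being lost and the new one is incomplete, and genes that belong to neither end can be switched on or off for a time. In fibroblasts a gain of epithelial genes is a known early step. Leukemia cells driven by NOTCH1 are of the T lineage and grow without epithelial contacts, whereas pluripotent cells form an epithelium held together by E-cadherin and simple keratins.

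Levels are log2 values, so a difference of 1 is a 2-fold difference. T-cell markers averaged 11.15 to 11.17 on the leukemia arrays, against 5.51 to 7.45 on the colony arrays, and pluripotency markers averaged 9.39 to 9.49 on the iPS arrays. Among colonies the pluripotency markers averaged 6.30, 9.23 and 9.68 on GFP-negative arrays 1, 2 and 3, and 8.0, 9.55 and 7.47 on GFP-positive arrays 1, 2 and 3. GFP-negative array 1 therefore went against its label of reprogrammed, and it and GFP-positive array 3 had the lowest pluripotency markers, with GFP-positive array 1 next. Over all genes GFP-positive array 1 correlated most with GFP-negative array 1 (0.9757) and about as much with GFP-positive array 2 (0.9753), and GFP-positive array 3 correlated most with GFP-negative array 1 (0.9615). Array correlations ranged from 0.8753 to 0.9953 over the genes tested. The median standard deviation (SD) of a gene was 0.25 over the 6 colonies, 0.10 over the leukemia arrays and 0.10 over the iPS arrays.

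The colonies exceeded leukemia in 2503 genes (11.3% of those tested) and iPS cells in 891 (4.02%), and fell below leukemia in 3275 (14.8%) and below iPS cells in 1554 (7.01%). The 381 genes higher than both ends made up 1.72% and the 443 lower than both 2.0% of the genes tested, so 46.2% of the genes found were higher. That split was 66.6% after cyclic loess normalization, which left 487 higher and 244 lower. The higher genes lay further out than the lower ones. Taking the smaller of a gene's differences from the ends, called its excess when positive and its shortfall when negative, the median excess was 0.91, with 170 genes at 1 or more and 56 at 2 or more. The median shortfall was -0.54, with 29 genes at -1 or below and none at -2 or below.

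All 6 colony arrays lay above all 6 leukemia and iPS arrays for 287 of the 381 higher genes, against 493 of all genes tested (2.22%), and all 6 lay below for 399 of the 443 lower genes, against 818 of all (3.69%). The ends differed from each other in 99 of the higher and 77 of the lower genes at an adjusted p under 0.05 (26.0% and 17.4%), against 24.3% of all genes tested. The iPS cells were the nearer end for 243 of the higher genes and the leukemia for 138. For the lower genes the nearer end was iPS cells in 232 and leukemia in 211. Counts depended on how the spread was estimated: fits of each comparison on its own 9 arrays, with the 6 colonies as 1 group, found 113 higher and 172 lower genes, all of them among the 381 and 443. Leaving out any of the 3 iPS arrays left 75 to 84 higher and 126 to 132 lower, any leukemia array 206 to 215 and 213 to 222, and GFP-positive array 1 left 250 and 282, whereas there were 734 and 685 without GFP-negative array 1 and 895 and 717 without GFP-negative array 3. Without GFP-negative array 1 and GFP-positive array 3 together there were 927 higher and 809 lower.

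**Figure D1:**
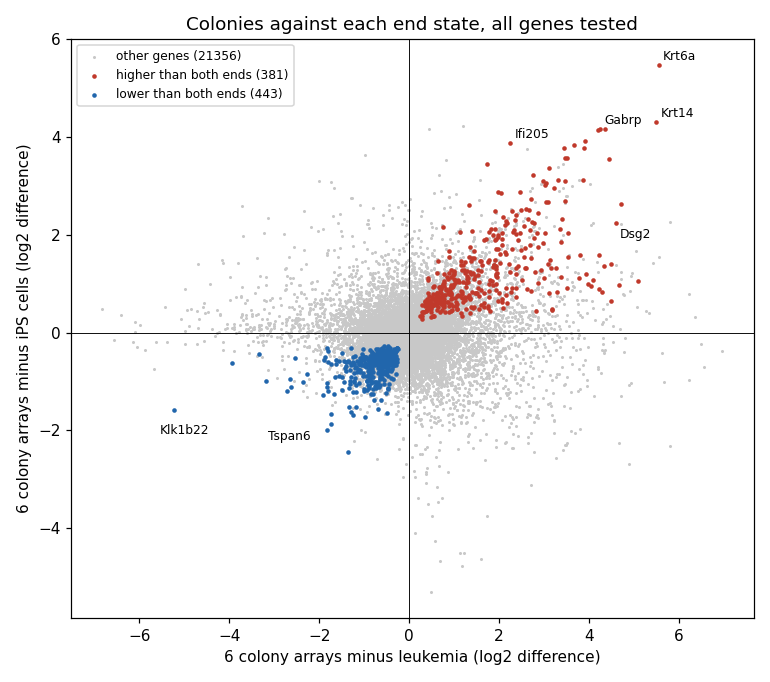
Each point is 1 of the 22180 genes tested, with the mean of the 6 colony arrays minus the leukemia mean on the horizontal axis and minus the iPS mean on the vertical axis, both in log2 units. The 381 genes higher than both ends fill the upper right and reach 5.47 above the nearer end at Krt6a, and the 443 lower ones crowd near the origin in the lower left, where Tspan6 reaches -1.83.

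Epithelial structural genes made the largest differences upward. Keratins form the intermediate filaments of epithelia, and the stratified set marks skin-like layers. Of 12 stratified keratins measured 4 were higher than both ends (Krt6a, Krt6b, Krt14 and Krt16), and of 6 simple keratins 3 were higher (Krt7, Krt8 and Krt20), with no member of either list lower. These shares were 33.3% and 50%, against 1.72% of all genes tested. Krt6a, a keratin of stressed and wounded epidermis, read 11.91, 5.22 and 4.09 on the GFP-negative arrays and 11.79, 11.63 and 12.92 on the GFP-positive arrays, against 4.09, 3.72 and 4.31 in leukemia and 4.19, 4.32 and 3.85 in iPS cells. GFP-negative array 1 and all 3 GFP-positive arrays were high, and the other two GFP-negative arrays were at or near the ends, so the colonies overlapped them. The mean over the 6 colonies was 5.55 ± 1.33 (standard error, SE) above leukemia and 5.47 ± 1.33 above iPS cells (limma, adjusted p = 0.011 and 0.028). Krt14, the keratin of basal epidermis, read 12.84, 9.52 and 5.54 on the GFP-negative and 12.07, 12.36 and 12.93 on the GFP-positive arrays, against 5.16, 5.26 and 5.73 in leukemia and 6.57, 6.43 and 6.68 in iPS cells. Only GFP-negative array 3 reached down into the range of the ends. Krt16, another keratin of activated epidermis, was likewise lowest on GFP-negative arrays 2 and 3, with an excess of 3.55 ± 0.97 (adjusted p = 0.041), and Krt20, a gut and urothelial keratin, had an excess of 3.04 ± 0.73 (adjusted p = 0.026). Krt7, found in ducts and trophoblast, was lower in level but above all ends on each colony array, at 7.57, 7.83 and 6.32 (GFP-negative) and 7.64, 6.85 and 7.28 (GFP-positive), against 5.59 to 6.04 in leukemia and 5.87 to 6.19 in iPS cells. Krt18, the partner of Krt8, missed the threshold against iPS cells at a difference of 2.27 ± 0.69 (adjusted p = 0.060). Krt6a and Krt6b are near-identical copies, so how far their probe sets separate them is uncertain.

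Desmosomes rivet epithelial cells to each other and anchor the keratins. Of 12 desmosome genes 4 were higher than both ends, namely the cadherins Dsg2, Dsg3 and Dsc2 and the plakin Dsp, and 10 were higher than leukemia. Over all genes tested 1.72% were higher than both ends and 11.3% higher than leukemia. Dsg2, the widely expressed desmoglein, read 10.15, 7.81 and 7.34 on the GFP-negative and 9.61, 9.28 and 9.15 on the GFP-positive arrays, against 4.31, 4.06 and 4.52 in leukemia and 6.54, 6.74 and 6.67 in iPS cells. Every colony array lay above every iPS array, which in turn lay above every leukemia array. The excess was 2.24 ± 0.48 (adjusted p = 0.017), although a second probe set of Dsg2 differed by 0.15 and 0.17 and was not called. Dsg3, the desmoglein of stratified epithelium, was also lowest on GFP-negative arrays 2 and 3, at 10.83, 6.41 and 5.19 (GFP-negative) and 9.88, 10.001 and 11.44 (GFP-positive), against 4.97 to 5.20 in leukemia and 4.91 to 5.12 in iPS cells. Dsp, which links desmosomes to keratin, read 11.34, 9.85 and 6.57 on the GFP-negative and 11.62, 10.28 and 11.10 on the GFP-positive arrays, against 7.33 to 7.42 in leukemia and 6.79 to 6.99 in iPS cells. GFP-negative array 3 was below both ends for this gene.

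Tight junctions seal epithelial sheets, and 3 of 18 adhesion and tight-junction genes were higher than both ends (16.7%, against 1.72% of all genes tested). The claudins Cldn3 and Cldn1 had excesses of 2.18 ± 0.47 and 1.78 ± 0.52, and occludin (Ocln) of 2.10 ± 0.49 (adjusted p = 0.017, 0.033 and 0.024). The list was much higher than leukemia, with a median difference of 2.13 and 13 of 18 genes called, against 11.3% of all genes tested. Its median difference from iPS cells was 0.92. Over all genes tested the medians were -0.02 from leukemia and 0.01 from iPS cells. Epcam, an adhesion molecule of epithelial and pluripotent cells, was no member: it read 9.90, 9.37 and 9.06 on the GFP-negative and 9.35, 9.30 and 9.65 on the GFP-positive arrays, against 4.88 to 5.08 in leukemia and 9.09 to 9.13 in iPS cells.

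Transcription factors and splicing regulators of epithelia were among the genes higher than both ends as well, at 5 of 17 measured (Elf3, Esrp1, Esrp2, Tfap2a and Zfp750). That was 29.4%, against 1.72% of all genes tested. Tfap2a, an AP-2 factor of ectoderm and trophoblast, read 9.38, 6.94 and 5.82 on the GFP-negative and 8.66, 7.06 and 9.65 on the GFP-positive arrays, against 4.83 to 5.003 in leukemia and 4.77 to 5.12 in iPS cells. Its excess was 3.01 ± 0.70 (adjusted p = 0.023). Elf3, an ETS factor of epithelial differentiation, was far steadier, at 8.12, 7.35 and 7.49 (GFP-negative) and 7.81, 7.62 and 8.09 (GFP-positive), against 4.75, 4.31 and 4.40 in leukemia and 6.51, 6.43 and 6.36 in iPS cells. The colonies stood 3.26 ± 0.18 above leukemia and 1.32 ± 0.18 above iPS cells (adjusted p = 3.8e-07 and 0.0022), and Elf3 was called with every array left out and under every other setting. Esrp2, which with Esrp1 directs epithelial splicing, had an excess of 1.73 ± 0.45 (adjusted p = 0.035). Grhl2, another epithelial factor, differed from iPS cells by -0.10 ± 0.16, and Trp63, the master factor of stratified epithelium, read 5.02 to 6.09 in colonies, against 5.08 to 5.21 in leukemia and 4.92 to 5.13 in iPS cells.

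The cornified envelope list, made of late skin barrier proteins, had 1 higher gene of 20 (5%, against 1.72% of all genes tested), namely Sprr1a, a cross-linked envelope precursor that is also induced by injury. It read 11.0003, 8.28 and 5.34 on the GFP-negative and 10.06, 9.97 and 10.02 on the GFP-positive arrays, against 5.003 to 5.38 in leukemia and 5.04 to 5.66 in iPS cells, an excess of 3.79 ± 0.89 (adjusted p = 0.024). Its promoter is printed because it holds 2 copies of the AP-1 motif TGAGTCA, in capitals, and AP-1 factors are known to act on this gene in skin. The sequence is from RefSeq (GRCm38.p6, chr3:92485832-92486131, minus strand, 250 bases before to 50 after the gene start).
Sprr1a: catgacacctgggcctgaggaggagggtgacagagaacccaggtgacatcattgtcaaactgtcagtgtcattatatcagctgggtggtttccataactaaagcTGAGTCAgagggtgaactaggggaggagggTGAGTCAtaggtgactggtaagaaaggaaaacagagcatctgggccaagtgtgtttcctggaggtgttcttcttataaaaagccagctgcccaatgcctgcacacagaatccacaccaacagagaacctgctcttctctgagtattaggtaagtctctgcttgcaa
The AP-1 motif, read on both strands, occurred in 18 of the 296 promoters found for higher genes (6.08%), in 16 of 343 for lower genes (4.66%) and in 802 of all 16990 (4.72%). Of 14 AP-1 and immediate-early genes 1 was higher than both ends (7.14%, against 1.72% of all genes tested). It was Klf6, a zinc finger factor induced by injury, at an excess of 1.38 ± 0.39 (adjusted p = 0.049). Serpinb5, a serpin of epithelia, had an excess of 3.48 ± 1.0 (adjusted p = 0.046), Tgfa, a ligand of the EGF receptor, of 1.15 ± 0.27 (adjusted p = 0.012), and Lama5, a laminin chain of basement membranes, of 1.07 ± 0.30 (adjusted p = 0.046). None of 19 annexin and S100 genes, 15 YAP and TEAD genes or 19 actin genes lay outside both ends.

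How many epithelial genes were called rested on the libraries. Without GFP-negative array 1 and GFP-positive array 3 the higher genes numbered 5 of 12 stratified keratins, 4 of 6 simple keratins, 7 of 12 desmosome genes, 9 of 17 epithelial factors and 6 of 18 adhesion genes. Without GFP-negative array 3, the lowest of the colonies in these lists, they numbered 7, 5, 9, 7 and 12. In fits of each comparison on its own 9 arrays they numbered 0, 0, 0, 1 and 0, and with the 6 colonies as 1 group in a joint fit the stratified keratins numbered 0 and the other lists 3, 3, 5 and 4. Over all genes tested the higher genes numbered 927, 895, 113 and 312 in these settings in turn, against 381, so calls in general moved too. In bulk RNA, more cells of a type and more RNA per cell cannot be told apart.

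**Figure D2:**
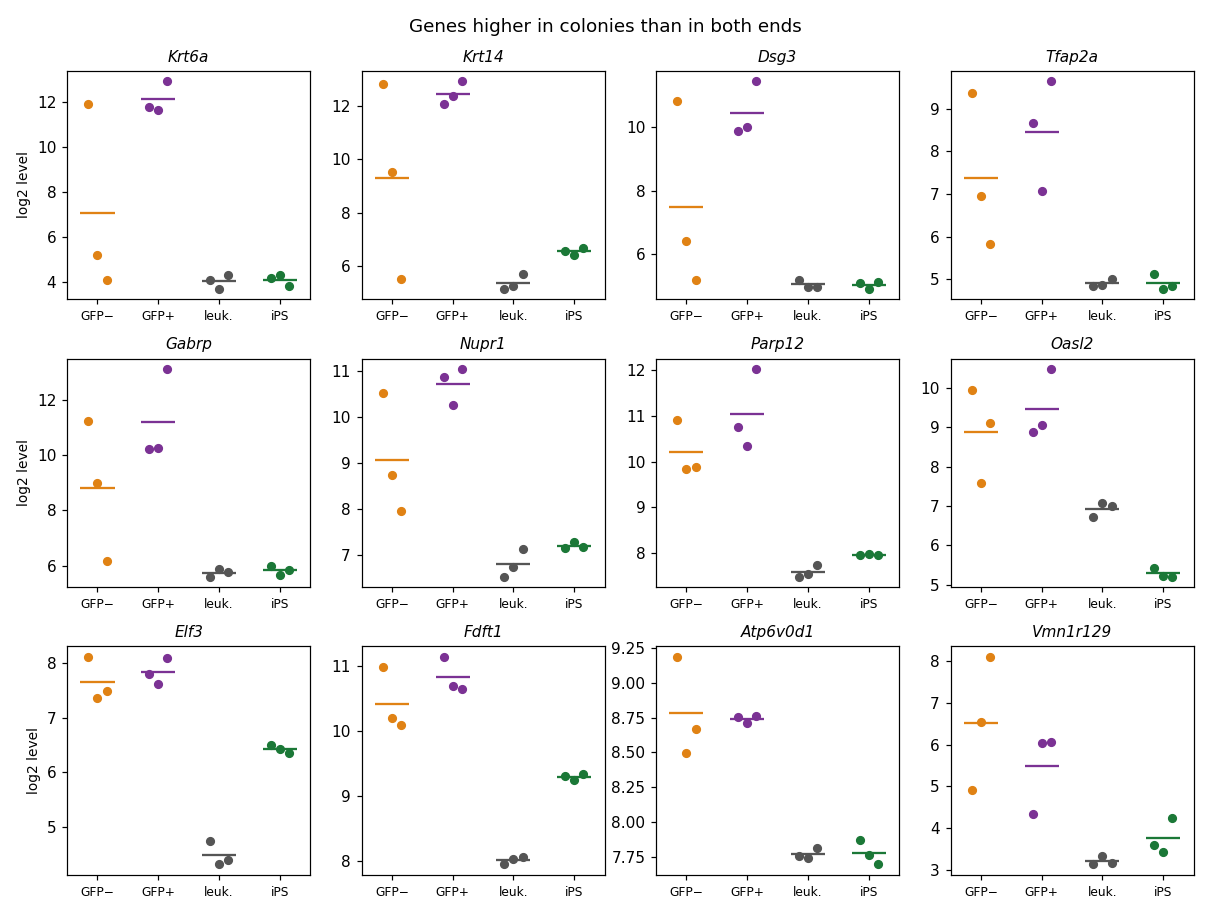
Log2 level of 12 genes higher in colonies than in both ends on each of the 12 arrays, with GFP-negative (GFP−) and GFP-positive (GFP+) colonies, leukemia (leuk.) and iPS cells from left to right, 1 point per array and a line at each mean; vertical axes differ and do not start at 0. Krt6a, Krt14 and Dsg3 range over several units among GFP-negative arrays, while Parp12, Elf3, Fdft1 and Atp6v0d1 sit clear of both ends on all 6 colony arrays.

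Among the genes ranked by excess whose colonies all lay above the ends, Gabrp, a GABA receptor subunit made by epithelia, came first. It read 11.24, 8.99 and 6.16 on the GFP-negative and 10.20, 10.24 and 13.11 on the GFP-positive arrays, against 5.60 to 5.87 in leukemia and 5.65 to 6.00 in iPS cells, an excess of 4.16 ± 0.95 (adjusted p = 0.022). Nupr1, a small chromatin protein of the stress response, read 10.52, 8.74 and 7.97 (GFP-negative) and 10.87, 10.26 and 11.03 (GFP-positive), against 6.54, 6.74 and 7.13 in leukemia and 7.16, 7.29 and 7.19 in iPS cells. Each colony array was above each end, and GFP-negative arrays 2 and 3 were the lowest of the colonies. The excess of Nupr1 was 2.68 ± 0.44 (adjusted p = 0.0055). Klk14, a skin kallikrein protease, had an excess of 2.72, Car2, a carbonic anhydrase, of 2.53, Frk, a Src-family kinase of epithelia, of 2.505, Capn5, a calpain, of 2.33 and Tmc4, a membrane channel, of 2.30, with adjusted p between 0.012 and 0.034. A second probe set of Tmc4 differed by 0.07 and 0.53 and was not called. Nipal2, a putative magnesium transporter, had an excess of 2.97 and Ctla2b, a cysteine protease inhibitor with close relatives, of 2.45 (adjusted p = 0.028 and 0.046). Plk2, a p53-responsive kinase, was 4.49 ± 0.38 above leukemia and 1.41 ± 0.38 above iPS cells. It was the 1 gene of 19 in the p53 and cell-cycle-inhibitor list outside both ends (5.26%, against 1.72% of all genes tested higher than both). Cdkn1a, the best known p53 target, was 3.52 ± 0.30 above leukemia but 0.36 ± 0.30 from iPS cells (adjusted p = 0.48).

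Interferon-stimulated genes, which cells switch on against viruses, contributed 4 of 15 (Oasl2, Usp18, Bst2 and Ddx58). Their share was 26.7%, against 1.72% of all genes tested. Oasl2, an oligoadenylate synthetase-like protein, read 9.94, 7.58 and 9.11 on the GFP-negative and 8.89, 9.05 and 10.47 on the GFP-positive arrays, against 6.71, 7.07 and 7.01 in leukemia and 5.44, 5.23 and 5.21 in iPS cells. The lowest colony array still lay above the highest leukemia array. The colonies exceeded leukemia by 2.24 ± 0.47 and iPS cells by 3.88 ± 0.47 (adjusted p = 0.0050 and 0.0015). Ddx58, the RNA sensor RIG-I, had an excess of 1.16 ± 0.26 (adjusted p = 0.019), and Usp18, which removes ISG15 from proteins, of 1.99 ± 0.60 (adjusted p = 0.032). Outside the list, Parp12, an interferon-induced ADP-ribosyltransferase, read 10.92, 9.84 and 9.89 on the GFP-negative and 10.76, 10.34 and 12.03 on the GFP-positive arrays, against 7.48, 7.53 and 7.74 in leukemia and 7.95, 7.98 and 7.95 in iPS cells. Its excess of 2.67 ± 0.34 (adjusted p = 0.0017) was called with every array left out and under every other setting, as was that of Oasl2. Ifi205, an interferon-inducible p200-family gene with close relatives, had an excess of 3.66 ± 0.78 (adjusted p = 0.014). Mx1, Mx2, Rsad2 and Irf7, other classical targets, did not pass the test against leukemia, with differences of 0.68, -0.60, 0.61 and 0.50.

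The mean of the interferon list was 8.37, 6.92 and 7.42 on the GFP-negative and 7.34, 7.89 and 8.86 on the GFP-positive arrays, against 6.95 to 7.03 in leukemia and 6.42 to 6.46 in iPS cells. The mean of 20 macrophage and granulocyte genes was 6.18, 6.79 and 5.59 on the GFP-negative and 6.04, 5.95 and 8.14 on the GFP-positive arrays, against 7.60 to 7.67 in leukemia and 5.68 to 5.79 in iPS cells. GFP-positive array 3 was the highest colony array in both, and none of the 20 genes lay outside both ends. Macrophage markers (Csf1r, Adgre1, Cd68 and C1qa) averaged 8.01, 8.49 and 6.93 on the GFP-negative and 7.45, 7.20 and 9.54 on the GFP-positive arrays. They averaged 7.35 to 7.47 in leukemia and 6.92 to 7.02 in iPS cells. GFP-negative arrays 1 and 2 and GFP-positive array 3 lay above both ends. Granulocyte markers averaged 9.91 to 9.98 in leukemia and 4.57 to 6.08 on the colony arrays. The part of such cells in the interferon genes was not tested. Without GFP-negative array 1 and GFP-positive array 3 there were 6 of 15 interferon genes higher than both ends. Over all genes tested the higher genes then numbered 927, against 381.

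Genes of the lysosome and of its proton pump were higher than both ends as a smaller and steadier group. Of 17 lysosome and autophagy genes 3 were higher (Atp6v0d1, Lamp1 and Npc1). Of 25 genes named as subunits or accessory proteins of the vacuolar proton pump 5 were higher (Atp6v0d1, Atp6v0a1, Atp6v1a, Atp6ap1 and Atp6ap2). The shares were 17.6% of lysosome and 20% of pump genes, against 1.72% of all genes tested. The pump family and the other families by name below were chosen after their values were seen. Atp6v0d1, a membrane-sector subunit, read 9.19, 8.50 and 8.67 on the GFP-negative and 8.75, 8.71 and 8.76 on the GFP-positive arrays, against 7.75, 7.74 and 7.81 in leukemia and 7.87, 7.76 and 7.69 in iPS cells. The 2 ends coincided and every colony array stood about 1 unit above them, a difference of 0.99 ± 0.13 from each (adjusted p = 0.00029 and 0.0022). Lamp1, the main lysosomal membrane glycoprotein, was 1.38 ± 0.09 above leukemia and 0.53 ± 0.09 above iPS cells (adjusted p = 1.2e-06 and 0.0058). Npc1, which exports cholesterol from lysosomes, had an excess of 0.40 ± 0.08, and its second probe set was not called. The mean of the 25 pump genes was 7.94, 7.65 and 7.63 on the GFP-negative and 7.89, 7.70 and 7.76 on the GFP-positive arrays, against 7.17 to 7.27 in leukemia and 7.44 to 7.48 in iPS cells, so all 6 colonies lay above all ends. Without GFP-negative array 1 and GFP-positive array 3 the counts were 6 of 17 and 6 of 25, and in the separate 9-array fits 3 and 4. All higher genes numbered 927 and 113 in these settings, against 381.

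Cholesterol synthesis had 2 of 13 genes higher than both ends (15.4%, against 1.72% of all genes tested). Fdft1, squalene synthase, read 10.98, 10.20 and 10.09 on the GFP-negative and 11.14, 10.70 and 10.65 on the GFP-positive arrays, against 7.95, 8.04 and 8.06 in leukemia and 9.31, 9.24 and 9.34 in iPS cells. The colonies lay 2.61 ± 0.19 above leukemia and 1.33 ± 0.19 above iPS cells (adjusted p = 3.1e-06 and 0.0026), with no overlap. Hmgcs1, the enzyme before the rate-limiting step, had an excess of 0.90 ± 0.23 (adjusted p = 0.034). The list's median difference was 0.92 from leukemia and 0.67 from iPS cells, and 7 of 13 genes were higher than both without GFP-negative array 1 and GFP-positive array 3. All higher genes numbered 927 in that setting, against 381. Gsr, glutathione reductase, was the 1 oxidative stress gene of 13 outside both ends (7.69%, against 1.72% of all genes tested higher than both). It read 9.29 to 9.77 over the colonies, against 8.64 to 8.77 in leukemia and 8.79 to 8.99 in iPS cells (excess 0.63 ± 0.10, adjusted p = 0.0053). Bnip3, a hypoxia-induced mitophagy receptor, read 7.17, 6.90 and 7.04 on the GFP-negative and 6.60, 6.18 and 6.30 on the GFP-positive arrays, against 5.55 to 5.73 in leukemia and 6.00 to 6.18 in iPS cells, an excess of 0.62 ± 0.11 (adjusted p = 0.0077). The GFP-negative arrays were the higher ones for this gene. The housekeeping list had 2 of 11 genes higher, the membrane-remodelling Chmp2a and the adaptor Ywhaz, at excesses of 0.64 and 0.46, and 2 other probe sets of Ywhaz were not called. Its share of 18.2% was above those of the cholesterol list, the lysosome list (17.6%) and the adhesion list (16.7%).

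**Figure D3:**
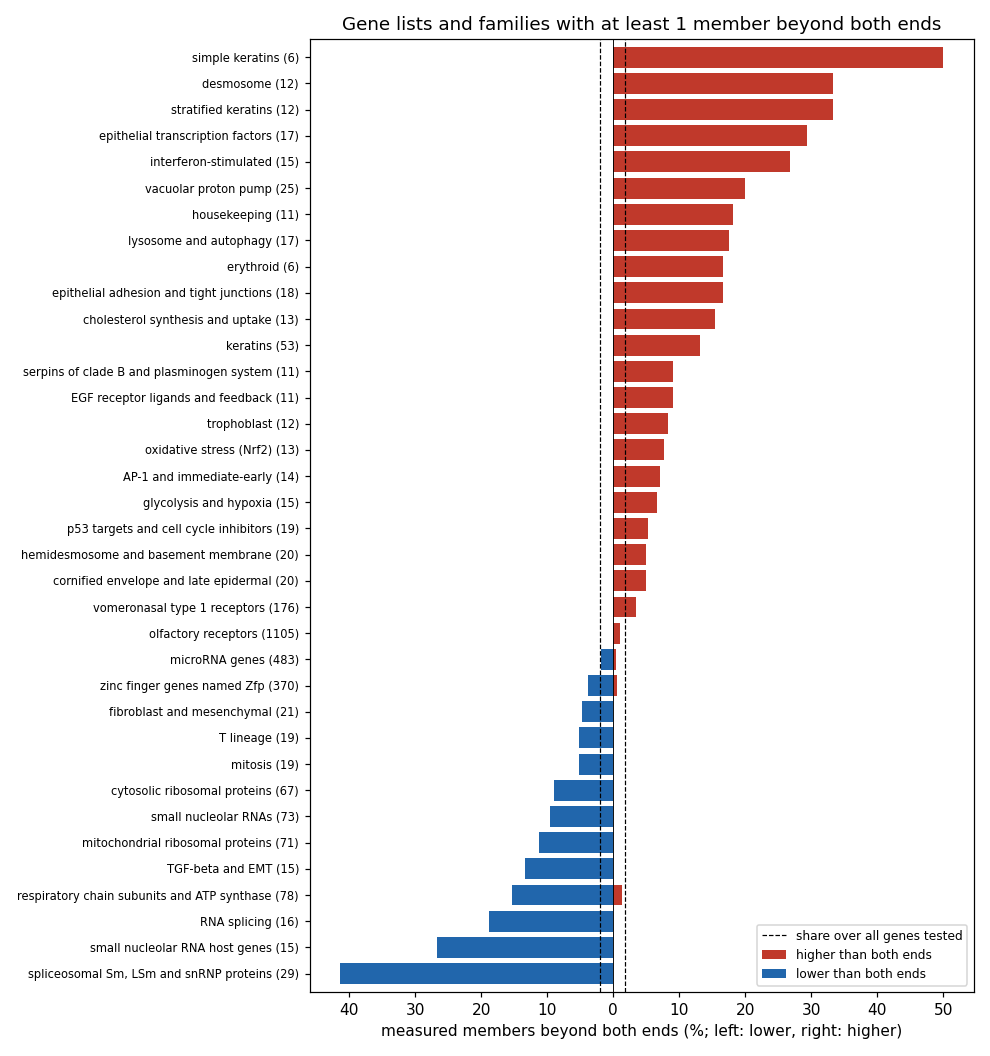
Share of the measured genes of each list or named family that lay outside both ends, with bars to the right for genes higher and to the left for genes lower than both; the number in parentheses is the number measured, and dashed lines mark the shares over all genes tested, 1.72% and 2.0%. Epithelial, interferon and proton pump genes reach furthest right, and spliceosomal proteins and small nucleolar RNA host genes furthest left.

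X-linked genes were more frequent among the higher genes than among the genes tested. The X chromosome held 32 of the 381 higher genes (8.4%), 1 of 442 lower genes with a known chromosome (0.226%) and 905 of all genes tested (4.09%). Rlim, an X-linked ubiquitin ligase that promotes Xist expression, read 10.99, 11.31 and 11.33 on the GFP-negative and 11.39, 11.05 and 10.52 on the GFP-positive arrays, against 9.94, 9.79 and 9.94 in leukemia and 10.06, 10.08 and 10.02 in iPS cells. All 6 colonies were above all ends, by 1.21 ± 0.16 and 1.04 ± 0.16 (adjusted p = 0.00031 and 0.0044). Other X-linked members were Chm, a prenylation escort protein, at an excess of 1.24, Nsdhl, a cholesterol synthesis enzyme, at 1.28, and Pls3, an actin bundler, at 1.58, with adjusted p = 0.00096, 0.0061 and 0.0098. These 4 genes were chosen after their values were seen. Among colonies Nsdhl and Pls3 were highest on GFP-negative array 1, at 10.79 and 9.96, and Chm on GFP-negative array 3, at 10.13. The proton pump genes Atp6ap1 and Atp6ap2 were X-linked members as well.

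Over all 905 X-linked genes the median difference was 0.05 from leukemia and 0.09 from iPS cells, against -0.02 and 0.01 for 21204 autosomal genes. Over 370 X-linked genes with a mean level over 6 the median difference was 0.22 from leukemia and 0.17 from iPS cells, against -0.05 and -0.07 for 11517 autosomal genes. The mean of these X-linked genes minus that of the autosomal ones was -0.19, 0.25 and 0.55 on the GFP-negative and 0.02, 0.30 and -0.30 on the GFP-positive arrays, against -0.28 to -0.30 in leukemia and -0.08 to -0.12 in iPS cells. GFP-negative arrays 2 and 3 and GFP-positive arrays 1 and 2 lay above all ends, and GFP-negative array 1 and GFP-positive array 3 did not. Xist, the RNA that silences 1 X chromosome in female cells, read 7.84, 9.48 and 6.39 on the GFP-negative and 7.84, 7.24 and 11.004 on the GFP-positive arrays, against 11.45 to 11.62 in leukemia and 7.54 to 7.82 in iPS cells. Without GFP-negative array 1 and GFP-positive array 3, 91 of the 905 X-linked genes were higher than both ends (10.1%), against 4.18% of all genes, where the full set of arrays gave 3.54% and 1.72%. The 9-array fits gave 20 (2.21%), against 0.509% of all genes.

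Vmn1r129, a vomeronasal receptor gene, had its arrays the other way round from the epithelial genes, at 4.90, 6.53 and 8.10 (GFP-negative) and 4.35, 6.03 and 6.07 (GFP-positive), against 3.13 to 3.32 in leukemia and 3.42 to 4.25 in iPS cells. GFP-negative array 3 was its highest array. Its excess was 2.24 ± 0.60 (adjusted p = 0.040), 6 of 176 vomeronasal type 1 receptors (3.41%) and 11 of 1105 olfactory receptors (0.995%) were higher than both ends, against 1.72% of all genes tested, and these families hold many near-identical copies.

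Genes lower than both ends had smaller differences and other roles. The protein core of the spliceosome, which removes introns, was the densest family: 12 of 29 genes named as Sm, LSm or snRNP proteins were lower than both (41.4%, against 2.0% of all genes tested) and none was higher. The mean of the 29 was 8.90, 9.27 and 9.29 on the GFP-negative and 8.93, 9.21 and 8.81 on the GFP-positive arrays, against 9.46 to 9.53 in leukemia and 9.55 to 9.59 in iPS cells, so every colony lay below every end. Snrpd2, a component of the Sm ring, read 10.34, 11.12 and 11.29 (GFP-negative) and 10.55, 11.05 and 11.10 (GFP-positive), against 11.44 to 11.66 in leukemia and 11.80 to 11.89 in iPS cells, and was chosen after its values were seen. Its shortfall was -0.63 ± 0.20 (adjusted p = 0.040). The count for the family was 13 without GFP-negative array 1 and GFP-positive array 3, 11 with the 6 colonies as 1 group, 10 after cyclic loess and 5 in the separate 9-array fits. All lower genes numbered 809, 443, 244 and 172 in these settings, against 443 in the main fit.

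The RNA splicing list, which shares no gene with the called members of that family, had 3 of 16 lower than both (18.8%, against 2.0% of all genes tested). Prpf19, a ubiquitin ligase of the active spliceosome, read 7.94, 8.56 and 8.66 on the GFP-negative and 8.31, 8.60 and 8.34 on the GFP-positive arrays, against 9.25 to 9.32 in leukemia and 9.09 to 9.21 in iPS cells. The groups did not overlap, and the shortfall was -0.76 ± 0.15 (adjusted p = 0.012). Hnrnpa2b1, a heterogeneous nuclear ribonucleoprotein, read 10.25, 10.39 and 10.35 (GFP-negative) and 10.28, 10.48 and 9.998 (GFP-positive), against 11.07 to 11.22 in leukemia and 10.84 to 10.98 in iPS cells. Its shortfall of -0.64 ± 0.11 (adjusted p = 0.0061) was called with every array left out and under every other setting. U2af1, which recognises the 3′ splice site, had a shortfall of -0.64 ± 0.13 (adjusted p = 0.016), on colony levels of 7.67 to 8.35, against 8.70 to 8.83 in leukemia and 8.52 to 8.78 in iPS cells.

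The promoter of U2af1 is printed as an example of the motif with the largest ratio of its share among lower genes to its share among all genes, of the 6 searched. Read on both strands, the E2F motif (TTT, 2 bases each C or G, then CGC) occurred in 25 of 343 promoters of lower genes (7.29%), 7 of 296 of higher genes (2.36%) and 497 of all 16990 (2.93%). Capitals mark the match, which lies on the opposite strand (RefSeq, GRCm38.p6, chr17:31658715-31659014, minus strand).
U2af1: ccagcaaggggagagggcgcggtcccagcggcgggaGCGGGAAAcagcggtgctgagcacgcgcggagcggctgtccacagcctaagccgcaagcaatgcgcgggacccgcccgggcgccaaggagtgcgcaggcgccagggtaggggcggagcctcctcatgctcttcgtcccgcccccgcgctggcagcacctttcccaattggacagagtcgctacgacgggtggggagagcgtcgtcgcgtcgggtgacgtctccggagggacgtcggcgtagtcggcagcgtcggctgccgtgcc
The Sp and KLF motif GGGCGG occurred in 61.5% of promoters of higher genes, 64.7% of lower genes and 46.7% of all. The NF-Y motif CCAAT occurred in 38.2%, 41.4% and 38.5%, the TEAD motif CATTCC in 15.9%, 11.1% and 13.5%, and the grainyhead-like motif (AAC, any 2 bases, GTT) in 2.03%, 3.5% and 4%. These matches are descriptions of the letters only.

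Small nucleolar RNAs guide the modification of ribosomal RNA and are cut from introns of their host genes. Of 15 host genes named Snhg 4 were lower than both ends (Snhg4, Snhg6, Snhg10 and Snhg20), and so were 7 of 73 small nucleolar RNAs. These were 26.7% and 9.59%, against 2.0% of all genes tested. The mean of the host genes was 7.14, 8.44 and 8.80 on the GFP-negative and 7.74, 8.42 and 7.46 on the GFP-positive arrays. It was 8.45 to 8.52 in leukemia and 8.89 to 8.96 in iPS cells, so GFP-negative array 3 lay between the ends. Snord19 read 4.46, 5.10 and 4.88 on the GFP-negative and 4.03, 4.26 and 4.59 on the GFP-positive arrays, against 5.77 to 6.14 in leukemia and 6.81 to 7.26 in iPS cells. All colonies were below all ends, with a shortfall of -1.35 ± 0.18 (adjusted p = 0.00025). Snord92 had a shortfall of -1.67 ± 0.39 and Snord49b of -1.17 ± 0.33 (adjusted p = 0.023 and 0.047). Snhg4 read 7.62, 9.58 and 9.53 (GFP-negative) and 8.58, 9.49 and 8.12 (GFP-positive), against 10.10 to 10.14 in leukemia and 10.28 to 10.53 in iPS cells, so GFP-negative array 1 and GFP-positive array 3 were the lowest. Snhg10 was steadier, at 5.72 to 6.81 over the colonies, against 7.44 to 7.74 in leukemia and 7.87 to 7.93 in iPS cells (shortfall -1.18 ± 0.21, adjusted p = 0.0024). Snhg20 had a shortfall of -1.24 ± 0.41 (adjusted p = 0.047). The 9-array fits called 1 host gene and 1 small nucleolar RNA, when all lower genes numbered 172, against 443.

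Of 71 mitochondrial ribosomal proteins 8 were lower than both ends and of 67 cytosolic ones 6, and 12 of 78 respiratory chain and ATP synthase subunits were lower, whereas Cox7a1, the heart and muscle form of a complex IV subunit, was higher. The lower shares were 11.3%, 8.96% and 15.4%, against 2.0% of all genes tested. Sdhb, the iron-sulfur subunit of complex II, was the example taken after its values were seen, at 9.10, 8.89 and 9.24 on the GFP-negative and 8.68, 9.09 and 9.43 on the GFP-positive arrays, against 9.90 to 10.08 in leukemia and 9.61 to 9.68 in iPS cells. Its shortfall was -0.57 ± 0.15 (adjusted p = 0.034). The cytosolic ribosomal mean was 9.70, 9.76 and 9.70 on GFP-negative arrays 2 and 3 and GFP-positive array 2, above 9.58 to 9.65 in leukemia. The mitochondrial ribosomal mean on GFP-negative array 3 was 8.42, within 8.39 to 8.45 in leukemia. On the remaining colony arrays these 2 means lay below both ends. The respiratory chain mean was 8.84 to 9.15 over the colonies, below 9.19 to 9.27 in leukemia and 9.20 to 9.21 in iPS cells. Ribosomal protein genes have many processed copies that their probe sets may share. After cyclic loess the counts were 2 of 71 and 6 of 78 for the mitochondrial families, and the 9-array fits gave 4 of each. All lower genes numbered 244 and 172 in these settings, against 443.

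Single genes with the largest shortfalls came from several functions. Tspan6, a tetraspanin and the 1 X-linked lower gene, read 6.85, 6.88 and 7.60 on the GFP-negative and 6.52, 7.70 and 5.66 on the GFP-positive arrays, against 8.68 to 8.72 in leukemia and 8.76 to 8.93 in iPS cells. The ends were level and every colony lay below them, with differences of -1.83 ± 0.35 from leukemia and -1.999 ± 0.35 from iPS cells (adjusted p = 0.0030 and 0.0070). Rasgrp2, a Rap1 activator of blood cells, read 5.76, 7.24 and 6.97 (GFP-negative) and 6.14, 6.53 and 5.55 (GFP-positive), against 7.93 to 8.21 in leukemia and 8.13 to 8.34 in iPS cells, a shortfall of -1.75 ± 0.30 (adjusted p = 0.0051). Klk1b22, a glandular kallikrein with close relatives, read 4.51, 5.21 and 4.59 on the GFP-negative and 5.95, 6.52 and 6.00 on the GFP-positive arrays, against 10.49, 10.86 and 10.75 in leukemia and 7.30, 6.72 and 7.12 in iPS cells. It was the only one of the 15 lower genes ranked by shortfall whose GFP-negative arrays all lay below its GFP-positive ones. Tacc1, a centrosomal coiled-coil protein, Msrb2, a mitochondrial methionine sulfoxide reductase, and Lrrk2, a kinase mutated in familial Parkinson disease, had shortfalls of -1.28, -1.18 and -1.14 (adjusted p = 0.0072, 0.0045 and 0.0015). These 3, Tspan6, Rasgrp2, Snord19 and Snhg10 were called with every array left out and under every other setting. Ttc21b, a protein of ciliary transport, and Anp32e, a chaperone that removes histone H2A.Z, had shortfalls of -1.20 and -1.19 (adjusted p = 0.033 and 0.021).

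Of 19 mitosis genes 1 was lower than both ends (5.26%, against 2.0% of all genes tested). Spc24, outside that list, a subunit of the kinetochore complex that holds microtubules, read 7.65, 9.29 and 9.66 on the GFP-negative and 8.21, 9.52 and 8.20 on the GFP-positive arrays, against 10.03 to 10.13 in leukemia and 10.25 to 10.30 in iPS cells (shortfall -1.33 ± 0.41, adjusted p = 0.042). Birc5, survivin, was the mitosis gene outside both ends, at 8.55, 9.53 and 9.76 (GFP-negative) and 8.64, 9.53 and 8.92 (GFP-positive), against 9.87 to 9.95 in leukemia and 10.22 to 10.31 in iPS cells. Mki67, the proliferation marker, was 1.38 ± 0.16 lower than in leukemia (difference -1.38) and differed from iPS cells by -0.23 ± 0.16 (adjusted p = 0.39). None of 20 replication, 12 repair or 18 ribosome biogenesis genes lay outside both ends, although the lists' median differences were -0.89, -0.72 and -0.35 from leukemia and -0.57, -0.80 and -0.81 from iPS cells.

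Of 15 genes in the TGF-beta and mesenchymal transition list 2 were lower than both ends, Vim and Zeb1, while 3 were higher and 3 lower than leukemia and the median difference was 0.19 from leukemia and -0.38 from iPS cells. The share lower than both was 13.3%, against 2.0% of all genes tested. Thy1, a surface protein of T cells and fibroblasts, was lower than both as well. Vim read 8.37, 9.11 and 8.74 on the GFP-negative and 8.65, 8.41 and 9.17 on the GFP-positive arrays, against 9.33 to 9.38 in leukemia and 10.01 to 10.19 in iPS cells, and its second probe set was not called. Zeb1, a repressor of epithelial genes, was 2.53 ± 0.13 below leukemia and 0.51 ± 0.13 below iPS cells (differences -2.53 and -0.51), and Thy1 differed by -3.93 ± 0.13 and -0.62 ± 0.13 (adjusted p against iPS cells 0.034 and 0.016). The 6 fibroblast markers, of the kind carried by feeder cells, averaged 6.04, 5.62 and 5.28 on the GFP-negative and 6.37, 5.42 and 6.79 on the GFP-positive arrays, against 5.24 to 5.35 in leukemia and 7.57 to 7.74 in iPS cells. Of 21 fibroblast and mesenchymal genes 16 were lower in colonies than in iPS cells, 5 were higher and 1 lower than in leukemia, and 1, Thy1, was lower than both ends (4.76%). Over all genes tested 7.01% were lower than iPS cells and 2.0% lower than both ends. Against leukemia 11.3% of all genes were higher and 14.8% lower. The part of feeder cells in the iPS side of these differences was not tested.

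Of 483 microRNA genes measured 9 were lower (1.86%) and 2 were higher (0.414%) than both ends, against 2.0% and 1.72% of all genes tested, so the lower share was near that of all genes and the higher share under it. Of these 11 genes 9 had mature sequences in the RefSeq table used here, 14 sequences with 14 distinct seeds. Mir677 had the largest shortfall, and both mature arms are printed with the seed (bases 2 to 8) in capitals. It is encoded on chromosome 10 of GRCm38.p6, plus strand, at chr10:128085291-128085312 for the 5p arm and chr10:128085335-128085360 for the 3p arm.
mmu-miR-677-5p: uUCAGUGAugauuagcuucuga
mmu-miR-677-3p: gAAGCCAGaugccguuccugagaagg
The Mir677 probe set read 6.97, 6.83 and 7.88 on the GFP-negative and 7.45, 7.74 and 7.21 on the GFP-positive arrays, against 9.08 to 9.22 in leukemia and 8.20 to 8.69 in iPS cells. The colonies lay below both ends on every array, with a shortfall of -1.12 ± 0.22 (adjusted p = 0.012), and the array does not separate precursor from mature RNA. This gene was named after its values were seen.

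**Figure D4:**
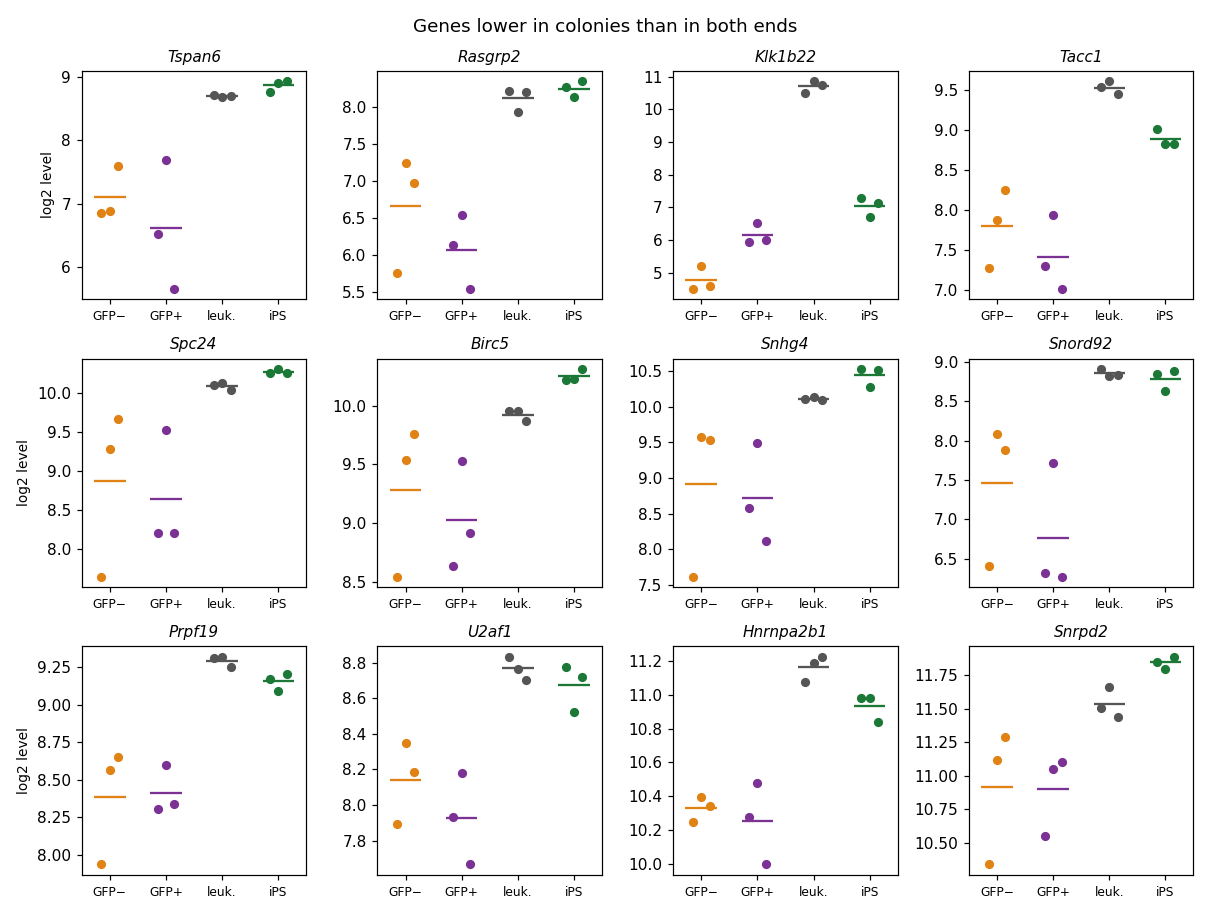
Log2 level of 12 genes lower in colonies than in both ends on each of the 12 arrays, groups from left to right as GFP-negative (GFP−) and GFP-positive (GFP+) colonies, leukemia (leuk.) and iPS cells, 1 point per array and a line at each mean; vertical axes differ and do not start at 0. All colony points lie under all leukemia and iPS points in each panel, and in Klk1b22 the GFP-negative points also lie under the GFP-positive ones.

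The difference between the colony types was not used to find the genes, and none of the 824 differed between GFP-negative and GFP-positive colonies at an adjusted p under 0.05, as none of all genes did (0.00%). The smallest adjusted p was 0.18, reached by Klk1b22 among others, at a difference of -1.38 between its GFP-negative and GFP-positive means. At an unadjusted p under 0.05 there were 88 of the 381 higher genes (23.1%) and 47 of the 443 lower ones (10.6%), against 6.37% of all genes. The same estimate of a gene's spread entered these p-values and the rule, so the shares are not independent of how the genes were found. The GFP-negative mean was below the GFP-positive mean in 282 higher genes and above it in 99, with a median difference of -0.23. Among the lower genes it was above in 302 and below in 141, and it was above in 55.1% of all genes. Leaving out GFP-negative array 1 gave 111 of the 824 genes at an adjusted p under 0.05, and leaving out GFP-positive array 3 as well gave 106.

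The colony arrays differed in the mean level of both classes. The mean of the 381 higher genes was 8.59, 7.79 and 7.53 on the GFP-negative and 8.46, 8.14 and 8.56 on the GFP-positive arrays, against 6.48 to 6.49 in leukemia and 6.89 to 6.93 in iPS cells. GFP-positive array 3 was the highest colony array for 128 of them and GFP-negative array 1 for 111, and GFP-negative array 3 was the lowest for 188 and the highest for 45. The mean of the 443 lower genes was 7.45, 7.67 and 7.72 on the GFP-negative and 7.45, 7.66 and 7.4996 on the GFP-positive arrays, against 8.34 to 8.38 in leukemia and 8.24 to 8.26 in iPS cells. The mean of 23 pluripotency genes outside the cassette was 6.49, 9.19 and 9.68 on the GFP-negative and 8.14, 9.46 and 7.04 on the GFP-positive arrays, against 5.76 to 5.93 in leukemia and 9.58 to 9.602 in iPS cells. Across the 6 colonies, which share their normalization, the correlation with that mean was below 0 for 302 higher genes (79.3%) and above 0 for 79, and below 0 for 114 lower genes (25.7%) and above 0 for 329, against 52.6% of all genes below 0. On GFP-negative array 3, which had the highest mean of these 23 genes, 325 of the 381 higher genes lay above all ends and 428 of the 443 lower genes below them. On the other 5 arrays 361 to 379 and 435 to 439 did. Each array entered the means that chose the genes, so these counts are largely set by the rule.

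**Figure D5:**
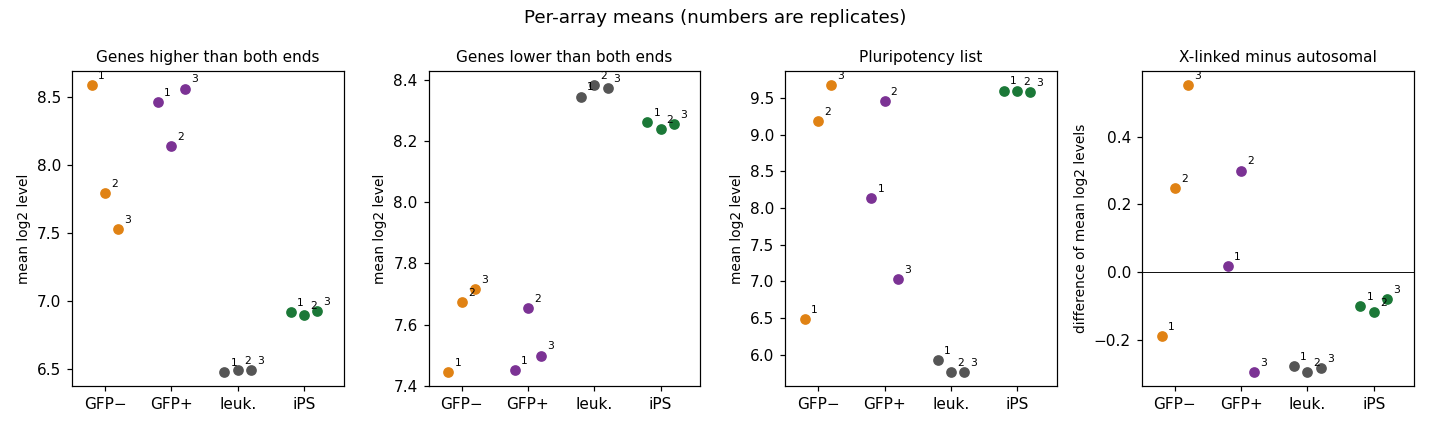
From left to right, for each array the mean log2 level of the 381 genes higher and of the 443 genes lower than both ends, of 23 pluripotency genes, and the mean of X-linked minus that of autosomal genes with a level over 6; groups run from GFP-negative (GFP−) and GFP-positive (GFP+) colonies to leukemia (leuk.) and iPS cells, points are single arrays with their replicate number, and vertical axes do not start at 0 in the first 3 panels. All 6 colonies lie outside both ends in the first 2 panels, whose genes were chosen on these same arrays, while in the third they spread from 6.49 to 9.68.

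None of the 23 pluripotency genes lay outside both ends. Of 19 T-lineage genes 1, Thy1, was lower than both (5.26%, against 2.0% of all genes tested). Nanog, a core pluripotency factor, read 5.07, 11.35 and 11.85 on the GFP-negative and 9.56, 11.93 and 7.97 on the GFP-positive arrays, against 4.32 to 4.99 in leukemia and 12.21 to 12.39 in iPS cells, and Sox2, another, was likewise lowest on GFP-negative array 1 and GFP-positive array 3. Pou5f1, which the cassette also encodes, read 6.99 to 7.59 over the colonies, against 6.31 to 6.68 in leukemia and 8.08 to 8.14 in iPS cells. Klf4 differed by 0.09 ± 0.26 from leukemia and -0.98 ± 0.26 from iPS cells, and Myc by -1.49 ± 0.25 and -0.23 ± 0.25. Ptprc, the pan-leukocyte CD45, read 8.37, 6.43 and 5.26 on the GFP-negative and 8.40, 8.83 and 10.75 on the GFP-positive arrays, against 11.69 to 11.76 in leukemia and 5.24 to 5.70 in iPS cells. Cd3e, a T-cell receptor chain, was 3.81 ± 0.71 below leukemia (difference -3.81) and 1.42 ± 0.71 above iPS cells (adjusted p = 0.23).

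The threshold separated genes whose adjusted p were nearly equal. Just inside, with no test beyond the rule, lay Ttc7b and Krt8 among higher genes, at larger adjusted p of 0.04992 and 0.04984, and Matn2 and Anks3 among lower ones, at 0.04997 and 0.04989. Just outside lay the kallikreins Klk7 and Klk13, 2.93 and 2.96 beyond the nearer end at 0.05024 and 0.05037, and Zmat5 and Cdc7, at differences of -0.36 and -0.65 and adjusted p of 0.05024 and 0.05030.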

How the data were processed

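RNA of 12 samples, 3 in each of 4 groups taken from the labels, was hybridised to Affymetrix arrays. The authors deposited log2 values made with RMA, per the submitters' processing notes; which software made them, in which version and with which filter, is not given in the sources used here. RMA brings the arrays to one distribution, which would hide a shift shared by most genes. Of 41345 probe sets, 23521 had 1 gene symbol in the platform annotation, 1814 had several and 16010 none. For the 1082 genes with several probe sets the one with the highest mean was used, which left 22180 genes, with 0 missing values and 0 identical arrays. Precision is limited by having 3 arrays per group.

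The values were fitted with limma 3.58.1 (R 4.3.3), 1 mean per group over all 12 arrays with a shared spread, and moderated by eBayes. Adjusted p-values are Benjamini-Hochberg over all genes, apart for each comparison. On simulated data with 200 of 22180 genes changed, calls outside both ends recovered 80% of genes raised by 1. They recovered 90% of those raised by 2, and 72% and 96% of those lowered by 1 and 2. Of the 184 calls on these data 15 were false (8.15%). The simulation gave leukemia and iPS cells the same mean for every gene, whereas 24.3% of genes differed between the ends on the real arrays. Whether these rates hold for the genes found on the real arrays was not tested. The members, the 43 gene lists and the motifs were chosen with earlier results of these data known, and 12 families defined by name were added after values were seen. Genes named are the 15 largest excesses and shortfalls with no overlap between colonies and ends, up to 3 members outside both ends per list and direction, 11 genes given whatever they did, and the 2 genes on each side of the threshold; clone and model names were left out. Both comparisons use the same colony arrays and are not independent. Other genes named, among them Krt6b, Bst2, the proton pump subunits apart from Atp6v0d1, Krt18, Grhl2 and Trp63, were chosen after their values were seen. So were the genes of the added families that these rules did not give. Alternatives covered the groups sharing a spread, array weights, normalization, probe sets, low values, moderation, a replicate block, left-out arrays and each colony type alone. RefSeq (GRCm38.p6) placed 22139 genes, left 41 unplaced, and gave promoters for 296 of 381 higher and 343 of 443 lower genes.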

Additional observations from a re-analysis of the deposited data

Results flagged for a closer look

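The spread over the 6 colony arrays was checked for 85 named genes, and in 3 of them 1 array lay far from the rest, with a gap to the nearest array, as a share of the range, above Dixon's 95% critical value. Chance flags about 1 group in 20. Krt8 read 12.54, 11.55 and 7.96 on the GFP-negative and 12.20, 11.71 and 11.86 on the GFP-positive arrays, against 6.49 to 6.72 in leukemia and 8.57 to 8.74 in iPS cells, and the gap under which GFP-negative array 3 lay was 0.783 of the range. Dsp had the same lowest array, at 6.57, with a gap of 0.65. Thy1 was lowest on GFP-positive array 2, at 6.09, with a gap of 0.636, and its other 5 colony arrays read 6.46 to 6.68.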

How the results depend on the processing

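Against leukemia and iPS cells together, the counts of higher and lower genes were 113 and 172 in separate 9-array fits, 961 and 903 with a spread per group, 1684 and 1573 with array weights, 137 and 153 with GFP-negative colonies alone, and 927 and 809 without GFP-negative array 1 and GFP-positive array 3. Lower genes numbered 244 after cyclic loess, where 66.6% of calls were higher, against 46.2%. Against iPS cells alone the counts were 275 and 743, 2027 and 2720, 3313 and 4062, 292 and 651, and 1815 and 2398 in the same order of settings. Against leukemia they were 4627 and 5089 with array weights, and 3972 higher without the 2 arrays. Genes differing between colony types among the 824 numbered 141 with array weights and 106 without the 2 arrays. Under the alternatives such genes were not counted over all genes tested. With 1 array left out the counts were 75 to 895 higher and 126 to 717 lower than both ends, 188 to 1861 higher and 490 to 2381 lower than iPS cells, and 0 to 111 between colony types. The causes were not tested. No named member changed direction under any of these alternatives. Of 71 named members 15 were called under all 24 alternatives. Of all members 56 higher and 75 lower were called whichever array was left out, and 66 and 107 in each colony type alone. All X-linked and autosomal genes, chosen after seeing the data, gave an X-linked minus autosomal mean of -0.70, -0.45 and -0.27 (GFP-negative) and -0.62, -0.44 and -0.75 (GFP-positive), against -0.72 to -0.73 in leukemia and -0.65 to -0.68 in iPS cells. Replicate numbers showed no steady pairing of the arrays: 2 of 18 same-number pairs correlated over 0.1 (-0.377 to 0.322). Both were between GFP-negative and GFP-positive arrays, where replicates 1, 2 and 3 gave 0.168, 0.322 and -0.377. With 3 arrays per group this check cannot exclude a pairing. With the replicate block 351 and 376 genes were called, of which 308 and 349 were among those reported.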
